A study of Mus musculus with 8 samples.

Results

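The Bcl2 family of survival and death genes was followed here through Rad21 depletion, over 10 members, Bcl2, Bcl2l1, Mcl1, Bak1, Bok, Bcl2l11, Bad, Bid, Bik and Bmf. A probe set, the group of probes on the array that reports one transcript or transcript end, was taken as a member when the platform annotation gave it exactly 1 symbol and that symbol was one of these 10. This gave 34 probe sets for the 10 members, out of 18193 genes measured on the array. Each gene is represented below by its brightest probe set, and the other probe sets are given beside it. The arrays had measured total RNA of R1/E cells, a single mouse embryonic stem cell (ESC) line, harvested 48 h after transfection of esiRNA, an enzymatically made pool of short interfering RNAs. The Rad21 knock-down group held 4 arrays of cells given esiRNA against Rad21, a core subunit of the chromosome-holding cohesin ring, and the Luc control group held 4 arrays of cells given esiRNA against luciferase, a gene that mouse cells lack. The labels name no transgene or deletion in the cells of either group. The labels call the arrays of a group biological replicates without stating what set them apart, so p-values measure the spread between these samples, which may be partly technical. All values are log2 intensities as deposited, a difference of 1 is a change of 2-fold, and every change is given as knock-down minus Luc control. On bulk RNA, fewer cells that express a gene and less of its RNA per cell cannot be told apart.

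The family sets the threshold at which a cell undergoes apoptosis through its mitochondria. Survival proteins such as Bcl2, Bcl2l1 (Bcl-xL) and Mcl1 hold the pore-forming effectors in check, the effectors Bak1 and Bok permeabilise the outer mitochondrial membrane or have been placed with that class, and the BH3-only proteins Bcl2l11 (Bim), Bad, Bid, Bik and Bmf bind the survival proteins or the effectors and so lower the threshold. ESCs are known to stand close to this threshold, and Mcl1 is known as a protein with a short lifetime.

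The DNA upstream of the members with the clearest change in each direction is shown first, since transcription from these start sites is one of the steps that set the level of the RNA measured below. The windows hold the 250 bases before an annotated transcript start, 5′ to 3′ on the strand of the gene, from RefSeq for the assembly GRCm38.p6. The Bcl2l11 window is that of the first of its start sites, at chr2:128125788-128126037 on the plus strand, and the Mcl1 window lies at chr3:95658471-95658720 on the plus strand. Capitals mark every match to GTAAACA, the core site of FOXO factors, and to GGGCGG, the GC box read by Sp1-type factors, on either strand.
Bcl2l11: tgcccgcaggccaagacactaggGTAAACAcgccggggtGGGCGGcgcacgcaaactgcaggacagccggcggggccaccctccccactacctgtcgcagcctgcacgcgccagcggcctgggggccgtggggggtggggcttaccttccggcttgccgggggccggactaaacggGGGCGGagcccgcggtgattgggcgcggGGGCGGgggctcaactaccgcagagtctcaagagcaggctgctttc
Mcl1: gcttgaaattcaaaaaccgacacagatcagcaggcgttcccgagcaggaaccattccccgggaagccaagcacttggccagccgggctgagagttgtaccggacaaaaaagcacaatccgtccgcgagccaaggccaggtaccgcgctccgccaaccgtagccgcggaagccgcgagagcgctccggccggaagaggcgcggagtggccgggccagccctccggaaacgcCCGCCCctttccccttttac
The Bcl2l11 window held 1 FOXO match, which starts 227 bases before the transcript start, and GC boxes at 211, 74 and 46 bases before it. A further Bcl2l11 window, at chr2:128127325-128127574 and not printed, held no FOXO match. It had GC boxes at 181 and 127 bases before its own start. The Mcl1 window held 1 GC box, 20 bases before the start and on the opposite strand, where it reads CCGCCC. Over all 32841 RefSeq windows of this length, 3.17% held GTAAACA and 32.7% held GGGCGG on either strand. RefSeq windows were at hand for 9 of the 10 members, 15 windows in all, and 1 of the 15 held the FOXO core while 7 held a GC box. CACGTG (the E-box, in 6.02% of all windows), TGANTCA (the AP-1 site, 6.75%), TGATGNAA (a composite ATF4 and CHOP site, 3.45%) and the CTCF consensus (0.509%) had no match in any of the 15. Each motif was counted on its own, whether or not it overlapped another, and a match only describes the letters in the window.

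The library labels were checked on the targeted transcript. Its brightest probe set read 13.62, 13.42, 13.83 and 13.79 in Luc control replicates 1 to 4 and 11.69, 11.75, 12.37 and 12.52 in the knock-down, a change of -1.58 ± 0.21 (SE, n = 4 per group, limma adjusted p = 0.00222). The other probe sets of Rad21 changed by -2.59 and -0.98 and both fell. Arrays of one group correlated at 0.998 to 0.999 across probe sets, and the second principal component set replicates 1 and 2 apart from replicates 3 and 4 in both groups, so that values within these replicate sets stand beside the results they touch. ESC markers were all well above the dim plateau, none of 10 having a mean under 4 in either group, while 7 of 8 fibroblast markers lay under 4 in both groups, as did 7 of 10 endoderm markers.

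Among the 10 members, Bcl2l11 fell, Mcl1 and Bik rose, and 7 did not pass the test. The fall of Bcl2l11 was to 49.8% of the control level, and the rises of Mcl1 and Bik were of 0.26 and 0.14 on the log2 scale. Over the array, 22.6% of the 18193 genes passed the same test (adjusted p under 0.05), 10.1% rising and 12.6% falling, so 3 calls among 10 is near the background. The same holds for separated groups. For 3 of the 10 brightest probe sets, those of the same 3 genes, no array of one group reached into the range of the other, against 27.8% of all genes. Of the 10 members, 1 had a mean under 4 in both groups, against 7742 of the 18193 genes. Both comparisons thus set genes of unlike brightness side by side, which was not corrected for. Counted by probe set, 5 of 34 rose, 3 fell and 26 did not pass, beside 14.9% called over the array, and 10 of the 34 did not overlap between groups, beside 19.4%. The median change over the 10 members was 0.06, with a range of -1.01 to 0.27, and the median over all genes was 0.0033.

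**Figure D1:**
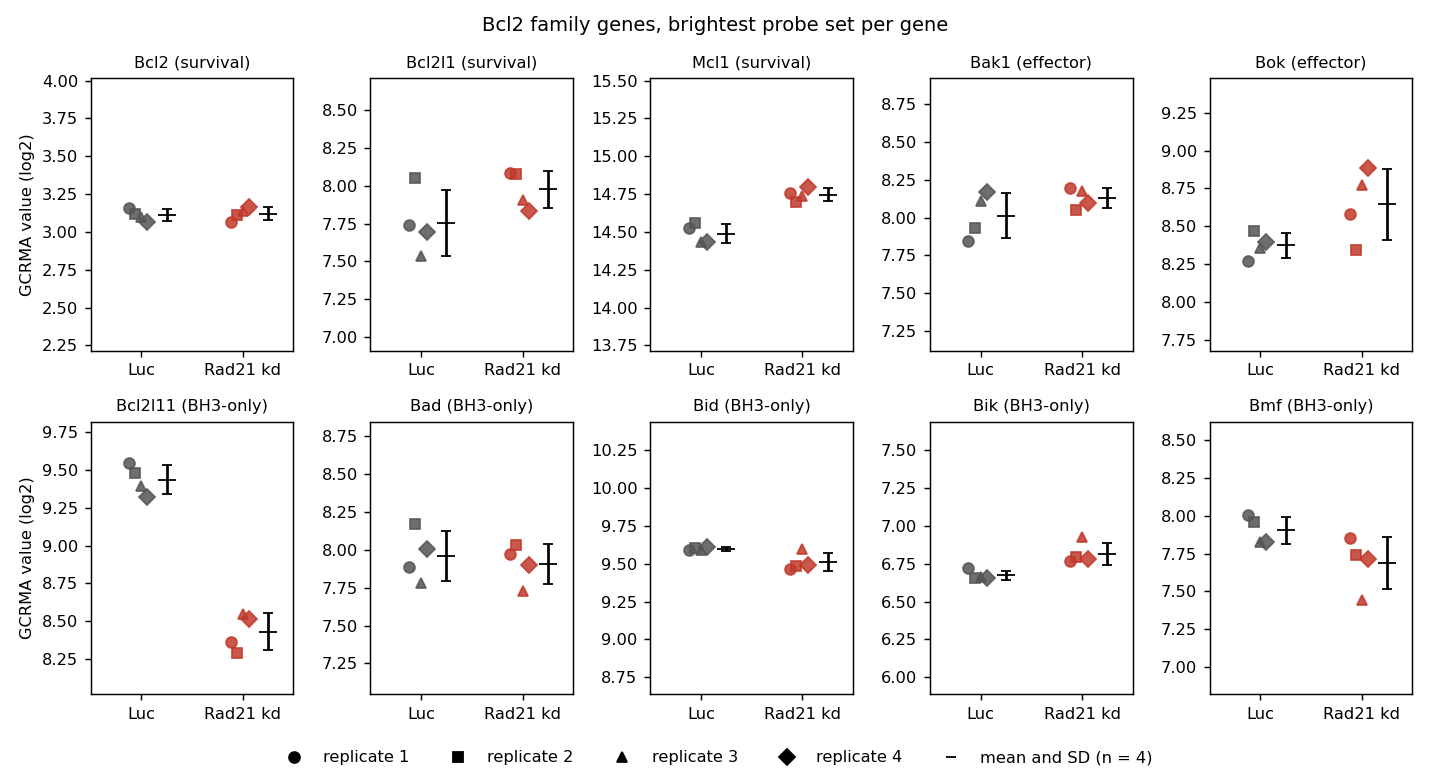
Values of the 10 members at their brightest probe set on each array (y axis, log2 intensity as deposited, every panel spanning the same number of log2 units) for the Luc control and the Rad21 knock-down (x axis, 4 arrays each). Points are arrays, with a symbol for each replicate, and bars beside them are the mean and SD of the 4 arrays. Bcl2l11 parts the groups by the widest gap, from 8.55 to 9.32, Mcl1 and Bik part them narrowly, and the groups of the other 7 overlap.

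The BH3-only gene Bcl2l11 encodes Bim, which binds every survival protein of the family and can activate the effectors directly. Its brightest probe set, 1435448_at, read 9.55, 9.48, 9.40 and 9.32 in Luc control replicates 1 to 4 and 8.37, 8.29, 8.55 and 8.52 in the knock-down. The highest knock-down array lay 0.77 below the lowest control array. The mean went from 9.44 ± 0.10 to 8.43 ± 0.12 (SD, n = 4 each), a change of -1.01 ± 0.07 (SE, 95% interval -1.18 to -0.84, limma adjusted p = 1.49e-04). As a level, the knock-down held 49.8% of the control (95% interval 44.3% to 56.0%). Within replicates 1 and 2 the change was -1.19 (adjusted p = 0.00264), and within replicates 3 and 4 it was -0.83 (adjusted p = 0.00842). The difference between these replicate sets did not pass (interaction adjusted p = 0.0895).

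All 5 probe sets of Bcl2l11 had a negative change, and 3 of them passed. The probe set 1456005_a_at went from 9.32 to 8.33, a change of -0.99 ± 0.06 (adjusted p = 9.67e-05), and 1435449_at from 6.35 to 5.54, a change of -0.81 ± 0.10 (adjusted p = 0.00128). These 3 probe sets also passed with each array left out in turn. The probe set 1426334_a_at read 7.51, 7.60, 7.70 and 7.80 in the control and 6.02, 5.52, 7.15 and 6.96 in the knock-down. Its groups did not overlap, yet knock-down replicates 1 and 2 stood well below replicates 3 and 4, and its change of -1.24 ± 0.35 did not pass (adjusted p = 0.0582). That change was -1.78 in replicates 1 and 2 (adjusted p = 0.00952) and -0.69 in replicates 3 and 4 (adjusted p = 0.0350). The dimmest, 1456006_at, changed by -0.80 ± 0.24 (adjusted p = 0.0735), and knock-down replicate 4 at 5.99 lay just above the lowest control array at 5.97.

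**Figure D2:**
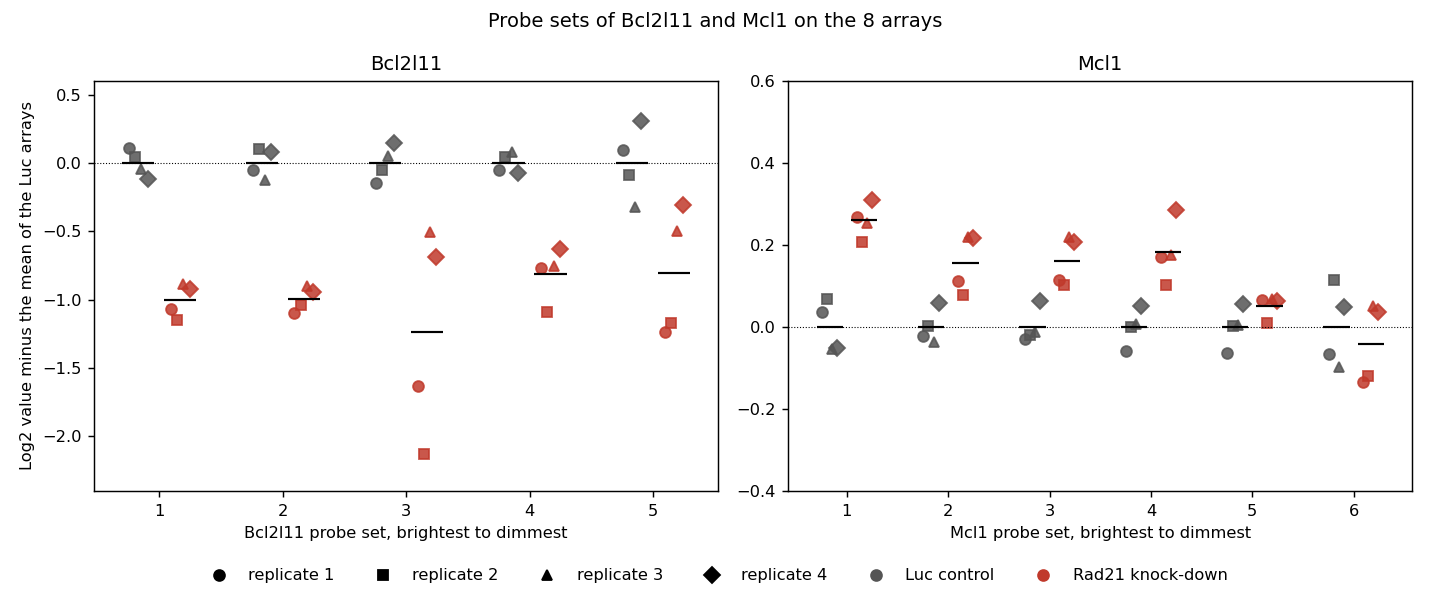
Every probe set of Bcl2l11 (left) and Mcl1 (right), from brightest to dimmest (x axis), on each of the 8 arrays (y axis, log2 value minus the mean of the Luc control arrays, with a different scale in each panel). Points are arrays, coloured by group with a symbol for each replicate, and short bars are group means. The 5 Bcl2l11 probe sets lie lower in the knock-down by 0.80 to 1.24, and those of Mcl1 differ from one another, with changes from -0.04 to 0.26.

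The other BH3-only genes moved little. Bik encodes a BH3-only protein of the endoplasmic reticulum. At its brightest probe set it read 6.72, 6.66, 6.66 and 6.65 in the control and 6.77, 6.80, 6.92 and 6.78 in the knock-down. These groups did not overlap, and the gap between them was 0.05. The change of 0.14 ± 0.04 (95% interval 0.05 to 0.23) passed narrowly (adjusted p = 0.0451). The call was lost when any array other than knock-down replicate 3 was left out, with an adjusted p of up to 0.113, and the other probe sets of Bik changed by 0.08 (adjusted p = 0.740) and -0.0005 (adjusted p = 0.996).

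Bid links death receptors to mitochondria once caspase 8 has cut it. Its brightest probe set read 9.59, 9.61, 9.59 and 9.61 in the control and 9.47, 9.49, 9.60 and 9.49 in the knock-down. Knock-down replicate 3 alone lay inside the control range. The change of -0.09 ± 0.03 (95% interval -0.16 to -0.02) did not pass (adjusted p = 0.117), and without knock-down replicate 3 it did (adjusted p = 0.0115). The second probe set of Bid had groups that did not overlap and a change of -0.34 ± 0.10 (adjusted p = 0.0630), and the third changed by 0.26 ± 0.16 (adjusted p = 0.413), so that the signs differed between probe sets.

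Bmf, which is held at the cytoskeleton in healthy cells, read 8.0, 7.96, 7.83 and 7.83 in the control and 7.85, 7.74, 7.44 and 7.72 in the knock-down. Its groups overlapped through knock-down replicate 1, and the change of -0.22 ± 0.09 (95% interval -0.43 to -0.006) did not pass (adjusted p = 0.195). Both other probe sets of Bmf were dim. Of these, 1458325_x_at changed the other way, by 0.22 ± 0.11 (adjusted p = 0.305), with 0.41 within replicates 1 and 2 (adjusted p = 0.0312) and 0.03 within replicates 3 and 4, and 1422995_at changed by -0.02 (adjusted p = 0.626). The mean of all Bmf probe sets changed by -0.0049. Bad, which growth factor signalling keeps phosphorylated and inactive, had means of 7.96 ± 0.17 and 7.91 ± 0.13 (SD, n = 4 each). Its change of -0.05 ± 0.10 (95% interval -0.28 to 0.17) did not pass either (adjusted p = 0.883), and its second probe set changed by -0.08 (adjusted p = 0.663).

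Of the survival genes, Mcl1 rose, Bcl2l1 did not pass and Bcl2 was dim. Mcl1 read 14.52, 14.56, 14.43 and 14.43 in the control and 14.76, 14.69, 14.74 and 14.80 in the knock-down at its brightest probe set, 1448503_at. All 4 knock-down arrays lay above all control arrays. The mean went from 14.49 ± 0.06 to 14.75 ± 0.04 (SD, n = 4 each), a change of 0.26 ± 0.04 (SE, 95% interval 0.17 to 0.35, adjusted p = 0.00298), or a level of 119.7% of the control. The change was 0.19 within replicates 1 and 2, where it did not pass (adjusted p = 0.0927), and 0.33 within replicates 3 and 4 (adjusted p = 0.0199). No single array decided the call, since the adjusted p was 0.00386 to 0.0114 with each left out in turn.

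The 6 probe sets of Mcl1 did not move alike. The probe sets 1437527_x_at, 1456243_x_at and 1456381_x_at, whose names end in the platform's mark for probes that may also bind other transcripts, rose by 0.16 (adjusted p = 0.0407), 0.16 (adjusted p = 0.0229) and 0.18 (adjusted p = 0.0256). They lost their calls without 6, 5 and 5 of the 8 arrays, each left out in turn. The probe set 1416880_at changed by 0.05 ± 0.03 (adjusted p = 0.396) and 1416881_at by -0.04 ± 0.06 (adjusted p = 0.851), and both had overlapping groups. Which ends or transcripts of Mcl1 these probe sets report was not analysed here.

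Bcl2l1 encodes Bcl-xL, a survival protein of the outer mitochondrial membrane. It read 7.74, 8.05, 7.53 and 7.69 in the control and 8.09, 8.08, 7.90 and 7.84 in the knock-down. Control replicate 2 lay among the knock-down arrays, and the change of 0.22 ± 0.11 (95% interval -0.05 to 0.49) did not pass (adjusted p = 0.327). The other 3 probe sets of Bcl2l1 had means under 4. Bcl2, the founding member of the family, had all 5 of its probe sets between 2.12 and 3.17 on every array, on the low plateau that the background correction gives to dim probe sets. Their changes ran from -0.01 to 0.03 with a lowest adjusted p of 0.647. No change of Bcl2 could be seen at this signal.

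The effectors did not pass. Bak1, a pore-forming protein resident on mitochondria, read 7.85, 7.93, 8.11 and 8.17 in the control and 8.19, 8.05, 8.18 and 8.10 in the knock-down. Its groups overlapped, with a change of 0.12 ± 0.08 (95% interval -0.06 to 0.29, adjusted p = 0.482), and its second probe set was dim. Bok, a member of the effector class by sequence, was measured by 1 probe set and read 8.27, 8.47, 8.35 and 8.40 in the control and 8.58, 8.35, 8.77 and 8.88 in the knock-down. Knock-down replicate 2 fell inside the control range and the other knock-down arrays lay above it. The change of 0.27 ± 0.11 (95% interval 0.006 to 0.54) did not pass (adjusted p = 0.198). It passed without knock-down replicate 2 (adjusted p = 0.0313) and within replicates 3 and 4 (0.45, adjusted p = 0.0316), and it was 0.09 within replicates 1 and 2.

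**Figure D3:**
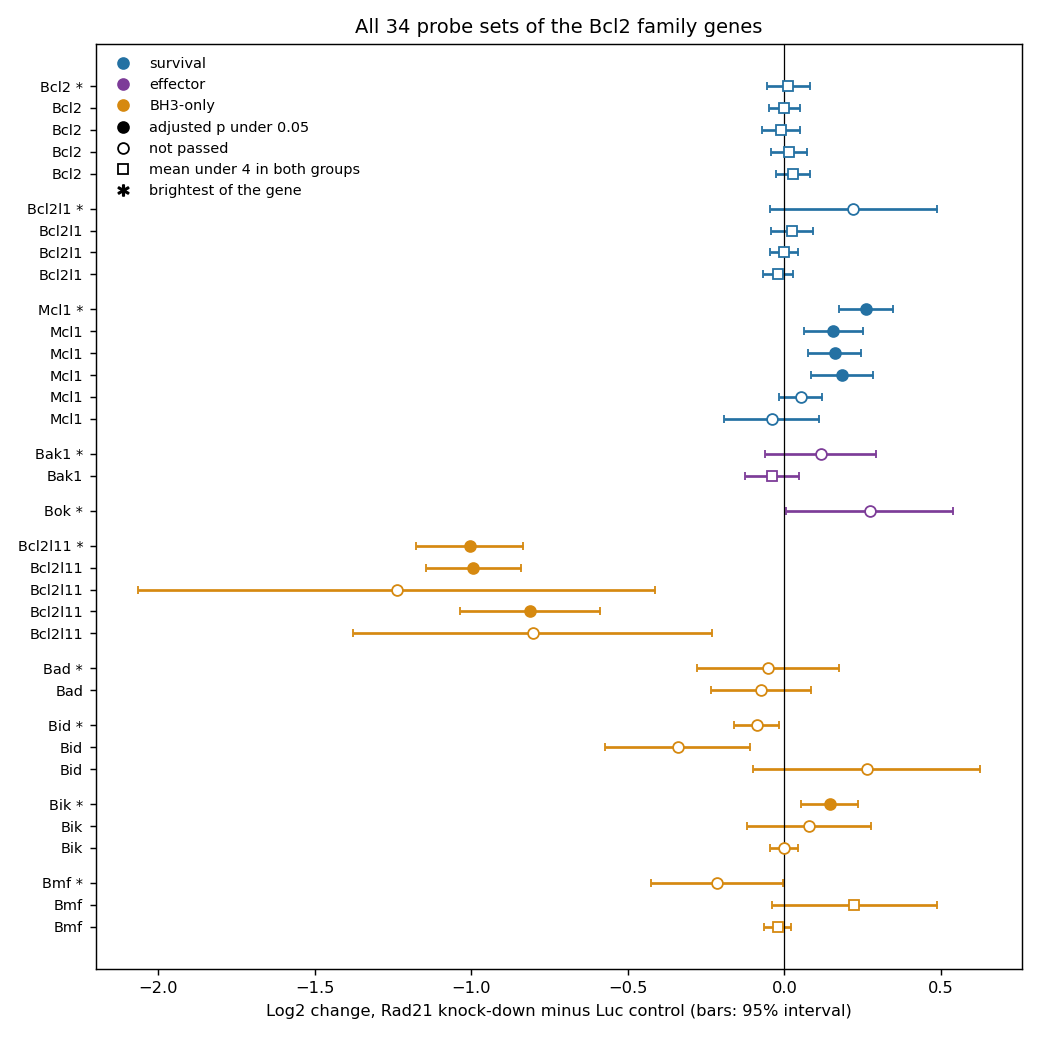
Change of each of the 34 probe sets of the family (x axis, log2, Rad21 knock-down minus Luc control, with 95% intervals from limma), in rows by gene and role. Colours are roles, filled points passed at an adjusted p under 0.05, open points did not, open squares had a mean under 4 in both groups, and asterisks mark the brightest probe set of a gene. The 3 probe sets that fell are those of Bcl2l11, and the 5 that rose are 4 of Mcl1 and 1 of Bik.

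The further genes of the family gave 1 call among 9 measured (11.1%, beside 22.6% of all genes). Pmaip1 encodes Noxa, a BH3-only protein known for binding Mcl1 and speeding its degradation. It read 9.77, 9.61, 9.48 and 9.38 in the control and 11.17, 11.24, 10.94 and 11.13 in the knock-down. The lowest knock-down array lay 1.17 above the highest control array, and the change was 1.56 ± 0.10 (adjusted p = 7.77e-05), 1.51 within replicates 1 and 2 and 1.61 within replicates 3 and 4. The BH3-only genes with calls thus went in both directions, Bcl2l11 falling and Pmaip1 rising. Bik also rose, by 0.14, with a call that was lost without 7 of the 8 arrays, each left out in turn.

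The other 8 genes did not pass. Bcl2l2 (Bcl-w), a survival gene, went from 7.08 ± 0.21 to 6.47 ± 0.31 (SD, n = 4 each), with groups that did not overlap and a change of -0.61 ± 0.17 at the edge of the threshold (adjusted p = 0.0505). Bbc3 (Puma), a BH3-only gene, changed by 0.0069 (adjusted p = 0.990). The changes of Hrk, Bcl2l12, Bcl2l13, Bcl2l10, Bcl2l14 and Bcl2l15 were -0.18, -0.13, -0.13, -0.12, -0.03 and 0.0010, with adjusted p from 0.161 to 0.995. Bax and the Bcl2a1 genes had no probe set with a single symbol and were not analysed here.

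The rest of the death pathway was described by lists of genes around the family. In all, 89 genes were listed, the further family members included, and 77 were measured, of which 14 rose, 10 fell and 53 did not pass. The share called was 31.2%, beside 22.6% of all genes, with a median change of 0.0069. Of the 77 genes, 10 had a mean under 4 in both groups, against 7742 of the 18193 genes. The shares thus compare genes of unlike brightness, which was not corrected for. Each list below holds few genes, and the 22.6% is the background for its count as well. The next paragraphs take them by their place in the pathway.

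Downstream of the mitochondria, 3 of 12 apoptosome and caspase genes rose and 1 fell (33.3% called, beside 22.6% of all genes, median change 0.13). Apaf1, the scaffold on which cytochrome c activates caspase 9, rose from 9.20 ± 0.08 to 10.22 ± 0.28 (1.02 ± 0.13, adjusted p = 0.00195). Dffb, the nuclease that cuts DNA between nucleosomes in dying cells, rose from 7.85 ± 0.16 to 9.16 ± 0.10 at the brighter of its probe sets (1.31 ± 0.09, adjusted p = 1.15e-04), and both its probe sets passed. Casp6, an executioner caspase, rose from 6.76 ± 0.55 to 8.06 ± 0.15 (1.30 ± 0.26, adjusted p = 0.0128). Its second probe set was dim, with means of 1.74 and 1.75, and changed by 0.0034. Aifm1, a flavoprotein of the mitochondrial intermembrane space, fell by 0.23 (adjusted p = 0.00167). Of 6 inhibitor of apoptosis genes, which restrain caspases, Birc2 fell by 0.24 (adjusted p = 0.00548) and 5 did not pass. Of 9 death receptor genes, Tradd, an adaptor of the TNF receptor, rose from 5.69 ± 0.15 to 6.41 ± 0.23 (0.72 ± 0.13, adjusted p = 0.00750) and 8 did not pass. The changes of the 3 probe sets of Tradd ran from 0.03 to 0.72, with 1 called.

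Among the mitochondrial partners of the family, 2 of 9 rose and 4 fell (66.7% called, beside 22.6% of all genes, median change -0.13). Of these 9, 1 had a mean under 4 in both groups, against 7742 of the 18193 genes. The falls were those of Itpr3, a calcium channel of the endoplasmic reticulum (-0.55 ± 0.11, adjusted p = 0.0123), of Vdac1 (-0.27, adjusted p = 7.92e-04) and Vdac3 (-0.14, adjusted p = 0.0265), the channels of the outer membrane, and of Mtch2, the outer membrane receptor for cut Bid (-0.13, adjusted p = 0.0409). The rises were those of Opa1, which shapes the inner membrane (0.18, adjusted p = 0.0155), and Mff, a mitochondrial fission factor (0.15, adjusted p = 0.00663). Vdac3 and Mtch2 lost their calls without 6 of the 8 arrays, each left out in turn. Of the 7 probe sets of Mtch2, 1 was called, and their changes ran from -0.13 to 0.11. Opa1 had 1 called probe set in each direction, and the changes of its 3 probe sets ran from -0.52 to 0.18. Of 5 further proteins that bind family members, Becn1, a starter of autophagy held by Bcl2, rose by 0.31 (adjusted p = 0.0257, lost without 4 of the 8 arrays), with 1 of its 5 probe sets called. Bnip2 rose by 0.28 (adjusted p = 0.0155), with another of its 8 probe sets called in the opposite direction.

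The genes that set the lifetime or place of family proteins gave 1 rise and 1 fall among 11 (18.2% called, beside 22.6% of all genes). Usp9x, a deubiquitinase known to spare Mcl1 protein from degradation, read 11.28, 11.25, 11.22 and 11.23 in the control and 10.61, 10.75, 10.75 and 10.75 in the knock-down. The groups were set apart by a gap of 0.47, the change was -0.53 ± 0.04 (adjusted p = 1.29e-04), and 5 of its 7 probe sets fell. Ywhag, a 14-3-3 protein of the class that holds phosphorylated Bad in the cytosol, rose by 0.24 (adjusted p = 0.0160), with 1 of its 4 probe sets called. Protein levels were not measured in these arrays.

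Of 16 measured transcription factors known to act on family genes, 4 rose and 3 fell (43.8% called, beside 22.6% of all genes, median change 0.05). Jun, a subunit of AP-1, rose from 8.0 ± 0.24 to 9.45 ± 0.06 (1.45 ± 0.11, adjusted p = 2.08e-04) and both its probe sets passed. Mycn rose by 0.32 (adjusted p = 0.00116), Rela by 0.22 (adjusted p = 0.0434) and Creb1 by 0.19 (adjusted p = 0.0409), the last 2 losing their calls without 6 of the 8 arrays. Creb1 had 1 of its 6 probe sets called. Atf4 and its target Ddit3 (CHOP) are factors of the stress response that are known to act on Bcl2l11 and Pmaip1. At its brightest probe set Atf4 fell from 13.23 ± 0.06 to 12.24 ± 0.32 (-0.98 ± 0.15, adjusted p = 0.00363). Its second probe set, from 12.19 to 11.78, had overlapping groups and did not pass (-0.40 ± 0.18, adjusted p = 0.224). The third was dim and changed by 0.02 (adjusted p = 0.782). Ddit3 fell at its brightest probe set from 9.10 ± 0.17 to 8.30 ± 0.08 (-0.80 ± 0.09, adjusted p = 9.54e-04). Its second probe set had overlapping groups and did not pass (-0.35 ± 0.35, adjusted p = 0.717). Myc fell from 9.42 ± 0.08 to 8.48 ± 0.13 (-0.94 ± 0.07, adjusted p = 1.83e-04). The FOXO factors, whose core motif stands in the Bcl2l11 window printed above, did not pass. Foxo1 changed by -0.01, Foxo3 by 0.25 (adjusted p = 0.387) and Foxo4 by -0.28 (adjusted p = 0.181). These are RNA levels, the activity of FOXO proteins was not measured, and a part of FOXO factors in the fall of Bcl2l11 was not tested.

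**Figure D4:**
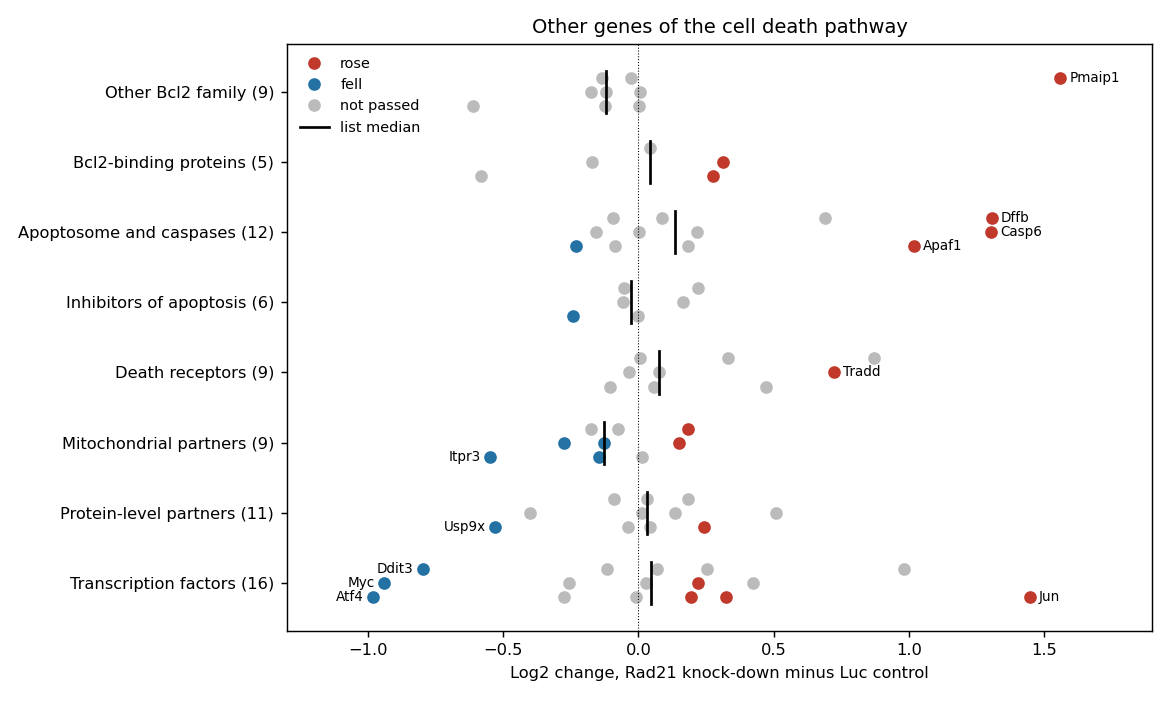
Changes of the 77 measured genes around the family (x axis, log2, Rad21 knock-down minus Luc control) by list, with the number measured in brackets. Each point is 1 gene at its brightest probe set, red where it rose, blue where it fell and grey where it did not pass, and black lines are list medians. Pmaip1, Jun, Dffb, Casp6 and Apaf1 lie above 1 on the right, and Atf4, Myc and Ddit3 lie lowest among the genes that fell.

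Summed levels of ESC and endoderm markers differed between the groups, and those of trophectoderm and fibroblast markers overlapped. Of the ESC, endoderm, trophectoderm and fibroblast markers, 60%, 30%, 37.5% and 12.5% were called, beside 22.6% of all genes. Levels were summed as log2 of the sum of intensities. For the 10 ESC markers the sum was 17.80 to 17.84 over the control arrays and 17.59 to 17.64 over the knock-down arrays. Of these markers, 1 rose (Lin28a, 0.42) and 5 fell, the largest falls being those of Nanog (-0.83), Pou5f1 (-0.55), Zfp42 (-0.46) and Utf1 (-0.43). Sox2 (-0.01), Sall4 (-0.02), Dppa4 (-0.05) and Tdgf1 (0.12) did not pass. The summed level of the 10 endoderm markers was 6.83 to 7.18 in the control and 8.46 to 8.90 in the knock-down, with 3 rising. These were Foxa2 (4.63, adjusted p = 9.88e-06), Dab2 (2.06, adjusted p = 5.42e-04) and Amn (0.90, adjusted p = 0.0119), while Gata4, Gata6 and Sox17, which define endoderm as well, had means under 4 in both groups. The summed level of 8 trophectoderm markers was 12.89 to 13.39 in the control and 12.87 to 13.55 in the knock-down, with 2 rising, Krt7 (2.83, adjusted p = 2.81e-05) and Cdx2 (1.10, adjusted p = 0.00244), and 1 falling, Tfap2c (-0.66, adjusted p = 0.00758). That of 8 fibroblast markers was 6.09 to 6.19 and 6.03 to 6.32, with Thy1 falling (-0.56, adjusted p = 0.0248). Utf1 and Thy1 lost their calls without 4 of the 8 arrays, each left out in turn. Dab2 had 1 of its 4 probe sets called and Cdx2 had 1 of its 2. The part of the marker shifts in the changes of the family was not tested.

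The position of the called members was looked at through the nearest annotated genes. Bcl2l11, Bcl2l1 and Bmf lie on chromosome 2, yet of these Bcl2l11 alone passed. Around Bcl2l11, Bub1 rose by 0.29 (adjusted p = 0.0281) and Acoxl and Anapc1 did not pass, with changes of 0.17 and -0.08. Around Mcl1 on chromosome 3, both genes before it on the annotated chromosome fell, Ensa by 0.42 (adjusted p = 0.00266) and Golph3l by 0.66 (adjusted p = 0.00168), opposite in sign to Mcl1, and Adamtsl4 and Ecm1 did not pass. Around Bik on chromosome 15, Mcat fell by 0.65 (adjusted p = 0.0252), and Ttll1 and Tspo did not pass. Of the 10 neighbours measured, 4 passed, beside 22.6% of all genes. These 4 had changes opposite in sign to the member beside them, Mcat among them beside Bik, whose own call was lost under 17 of the alternatives. The neighbours were added after their values were seen, and an effect of position was not tested.

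The genes whose values followed those of Bcl2l11 most closely over the 8 arrays were Ceacam1, Pcsk6 and Lrp11, with Pearson correlations of 0.998, 0.998 and 0.996 and changes of -2.80, -1.54 and -0.60. For Mcl1 they were Tcaf1, Ada and Pla2g4a, with correlations of 0.993, 0.992 and 0.991 and changes of 0.90, 0.40 and 1.12. The 8 arrays fall into 2 separated groups, which the points of each correlation share. In all, 574 genes correlated above 0.95 with Bcl2l11 and 268 with Mcl1.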

How the data were processed

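The data were 8 Affymetrix mouse expression arrays of total RNA, 4 per group. The deposited log2 values were made by the authors with GCRMA in Partek Genomics Suite 6.4, per the labels and methods. GCRMA includes a normalization between arrays, so a shift of the whole transcriptome could go unseen, and sets dim probe sets on a low plateau. The deposited array medians were 3.08 to 3.16. Scanner files were not used here, and precision is limited by the number of arrays.

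Of 45101 probe sets, 64 controls were left out. Symbols came from the platform annotation (a single symbol for 34945 probe sets, several for 932, none for 9160). Of the probe sets with a single symbol, 34741 had a gene identifier that was found in RefSeq. Groups were compared by limma 3.58.1 (lmFit and eBayes, R 4.3.3), two-sided, with no block and no filter, Benjamini-Hochberg adjusted over 45037 probe sets, and called at an adjusted p under 0.05. A probe set with a mean under 4 was termed dim. Tables were read with data.table in version 1.17.8, motifs were searched on both strands with pandas 2.3.3, and plots were drawn with matplotlib 3.10.9. The fit was tested on simulated data.

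The members and gene lists were chosen with earlier results of these data known. Described are every probe set of the members (some dim ones by range or count) and of Rad21, every measured further family gene, up to 4 called genes per direction in each other list, and the 3 closest profiles of the called members with the largest rise and fall. Foxo1, Foxo3, Foxo4, Gata4, Gata6, Sox17 and the neighbouring genes were added after their values were seen. Alternatives comprised the methods' parametric analysis of variance, a robust fit with a variance trend, blocks by replicate number or replicate set, each replicate set alone, a filter on means under 4, other scalings (quantile, or centred on probe sets that are bright), weights per array, other summaries of probe sets, a stricter threshold and the omission of each array in turn.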

Additional observations from a re-analysis of the deposited data

Results flagged for a closer look

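In 4 of the 68 groups of 4 arrays tested for the 34 probe sets, 1 array stood far from the others, by a gap past the critical value of Dixon's test for 4 values. Chance gives about 1 in 20 such groups. The second Bad probe set had its lowest value in knock-down replicate 3, at 7.67 with the next at 7.86, a gap of 0.958 of the range. The Mcl1 probe set 1416880_at was lowest in knock-down replicate 2, at 12.68 with the next at 12.73 (0.91 of the range). The brightest Bik probe set was highest in Luc control replicate 1, at 6.72 with the next at 6.66 (0.899), a gap in the direction that narrows the difference between groups. The Bik probe set 1449836_x_at was highest in knock-down replicate 3, at 4.89 with the next at 4.55 (0.886). The called probe sets of Bcl2l11 and the brightest probe set of Mcl1 had no such array.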

How the results depend on the processing

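Bcl2l11 fell under all 21 alternatives, with a change of -1.19 to -0.83 and an adjusted p of 3.74e-05 to 0.00842. Mcl1 rose under 20 of them, the exception being replicates 1 and 2 alone, and the call of Bik was lost under 17. The count of members that rose, 2, was 1 under the plain analysis of variance, the robust fit with a variance trend, a block by replicate number, a block by replicate set, the minimum mean of 4, quantile normalization, the mean of all probe sets and an adjusted p under 0.01, and 0 in replicates 1 and 2 alone. It was 1 to 2 with each array left out, as was the count that fell. The 8 called probe sets of the family became 5 under the plain analysis of variance, 4 under an adjusted p under 0.01 and 4 to 8 with each array left out. They became 10 with a block by replicate set and 9 with the minimum mean of 4. The stricter threshold left 3893 called probe sets of 6697 over the array, and a block by replicate set gave 8177. The 14 rises among the other death genes became 9 in replicates 1 and 2 alone and 7 at the stricter threshold. With a block by replicate set they became 19, and with the minimum mean of 4 they became 17. Changes near 0 turned sign, for Bcl2 (-0.0036 to 0.030 with each array left out) to -0.047 in replicates 1 and 2, -0.016 under quantile normalization, and -0.0036 and -0.0029 without Luc control or knock-down replicate 4, for Bak1 to -0.0008 in replicates 3 and 4, and for Bad (-0.11 to 0.017 with each array left out) to 0.017 without Luc control replicate 2 and 0.0079 without knock-down replicate 3. The causes were not tested. The replicate numbers were not taken as pairs, since deviations of same-numbered arrays correlated at 0.02 to 0.13 and 1 of 4 control arrays was closest to its own number. With the replicate number as a block, 6224 probe sets were called over the array and 7 of the family, and the adjusted p of Bik became 0.110. Signal limits Bcl2, which was dim at every probe set.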
